A study of Mus musculus with 2 samples.

Results

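Mitochondrial ribosomal protein genes were compared between the mouse cell lines SVEC4-10 and MS-1. They were taken as the probe sets annotated to a single gene whose symbol starts with Mrpl or Mrps and a digit, which gave 156 probe sets of 76 genes out of 34945 such probe sets of 18193 genes. The symbols split into 47 large subunit (Mrpl) and 29 small subunit (Mrps) genes. SVEC4-10 is an endothelial line from an axillary lymph node, and its culture medium held 10% fetal calf serum. MS-1 is an endothelial line from pancreatic microvessels, and its medium held 5% serum, so effects of serum and of line cannot be told apart. Both lines are known to carry the SV40 large T antigen, so neither is a model of untransformed endothelium. Each line was grown to confluence over 3 to 5 days, used up to passage 5, and measured once on an Affymetrix array. With 1 array per line no test between the lines was possible, no p-value was computed, and differences are described by their size.

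The mitochondrial ribosome translates the few messenger RNAs encoded by mitochondrial DNA, all of which specify subunits of the respiratory chain and ATP synthase. Its RNAs come from the mitochondrial genome, while its proteins are encoded in the nucleus, made in the cytosol and imported. The large subunit joins amino acids and the small subunit decodes the messenger RNA. Some of the proteins descend from those of bacterial ribosomes, and others are found only in mitochondria.

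The sample labelled SVEC4-10 lacked most endothelial markers: 13 of 16 listed genes, Pecam1, Cdh5 and Tek among them, were not above background there. Their summed signal was 216 in SVEC4-10 cells and 30000.1 in MS-1 cells. Fibroblast and mesenchymal markers were above background for 10 of 12 genes in SVEC4-10 cells (summed signal 34653) and for 2 of 12 in MS-1 cells (156). Mesothelial markers were above background for 5 of 6 genes in SVEC4-10 cells (summed signal 14657) and for 3 of 6 in MS-1 cells (179). Krt19 of that list went the other way, being not above background in SVEC4-10 cells at a signal of 121 in MS-1 cells. Every comparison below sets these unlike cultures side by side, and the part of cell identity in the values was not tested.

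Against this background the mitochondrial ribosomal protein genes differed little between the lines. All 76 were above background on both arrays, as were 10124 of the 12454 genes measured on at least 1 array (background was a signal of 17.6 in SVEC4-10 cells and 16.3 in MS-1 cells). The median log2 ratio of SVEC4-10 over MS-1 was -0.07 over the 76 genes and 0.01 over all measured genes. Ratios were above 0 for 31 of the genes and below 0 for 45, against 6325 and 6129 of all measured genes. Differences of 2-fold or more concerned 5 genes that were higher in SVEC4-10 cells (6.58%) and 4 that were lower there (5.26%), where 15.2% and 12.0% of all measured genes lay this far apart. No gene of the family reached 4-fold. At 1.5-fold the counts were 11 higher and 11 lower, which is 14.5% each, against 24.8% and 21.9% of all measured genes. Of the 10124 genes above background on both arrays, 13.5% were at least 2-fold higher and 10.6% lower in SVEC4-10 cells, and 23.7% and 21.1% passed 1.5-fold.

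The call of a direction depends on how the arrays are scaled. The deposited values have the same trimmed mean on both arrays (150.001), and how they were scaled is not given in the sources used here. When the arrays were set level on the poly-A control transcripts instead, every log2 ratio dropped by 0.51, the family had 2 genes at least 2-fold higher and 17 lower in SVEC4-10 cells, and its median was -0.58. These are 2.63% and 22.4% of the family, where 8.50% of all measured genes were higher and 25.4% lower under that scaling. The higher share of its 2-fold calls was then 10.5%, against 55.6% as deposited. The median over all measured genes was -0.50 under that scaling, so the family lay 0.08 below all genes on the log2 scale under either one.

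**Figure D1:**
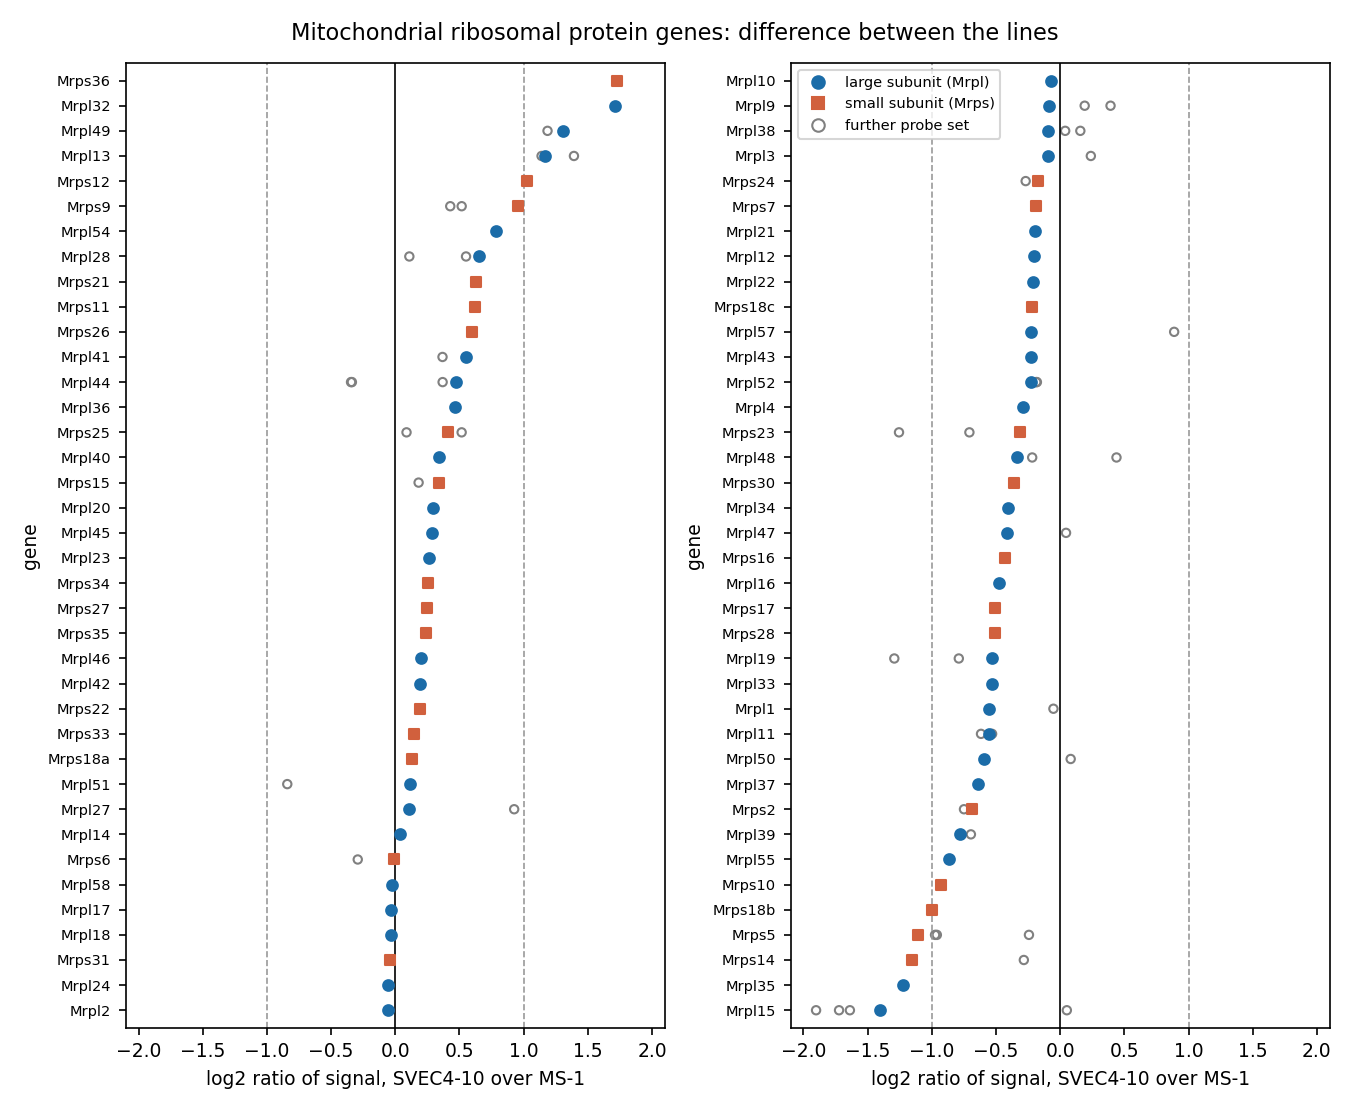
Log2 ratio of signal (SVEC4-10 over MS-1, x axis) for each of the 76 genes (y axis), ordered from the highest at the top left to the lowest at the bottom right. Filled blue circles are large subunit and filled red squares small subunit genes, open circles are further probe sets of the gene above background on both arrays, and dashed lines mark 2-fold. Most genes lie between the dashed lines, with 5 beyond the right one and 4 beyond the left one.

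The spread within the family was narrower than among all genes but wider than in 2 related groups. The standard deviation of the log2 ratios was 0.62 over the family, 1.37 over all measured genes and 1.09 over the 7614 genes above background on both arrays whose mean signal lay in the family's range. It was 0.47 over 46 measured cytosolic ribosomal protein genes and 0.43 over 74 genes of the respiratory chain and ATP synthase. The error of a log2 ratio, estimated from genes that have a pair of probe sets, was 0.49 over 4406 such genes, or 0.36 from the 27 family members that had such a pair. This error holds no variation between cultures. Ratios within 0.49 of 0 were found for 47 of the 76 genes (61.8%), 40 of 46 cytosolic ribosomal protein genes (87.0%), 59 of 74 respiratory chain genes (79.7%) and 46.6% of all measured genes. Unlike the 7614 genes, the cytosolic ribosomal protein and respiratory chain lists were not limited to the family's signal range. Both lists had higher median signals than the family on both arrays. In MS-1 cells the medians were 7758 and 1870 in that order, against 621 for the family. The part of signal level in their narrower spread and larger shares within 0.49 was not tested. Log2 signals on both arrays were correlated (Pearson 0.78, Spearman 0.76) across the 76 genes. Points of this correlation share the probe sets and their binding strength, and genes are not independent replicates.

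**Figure D2:**
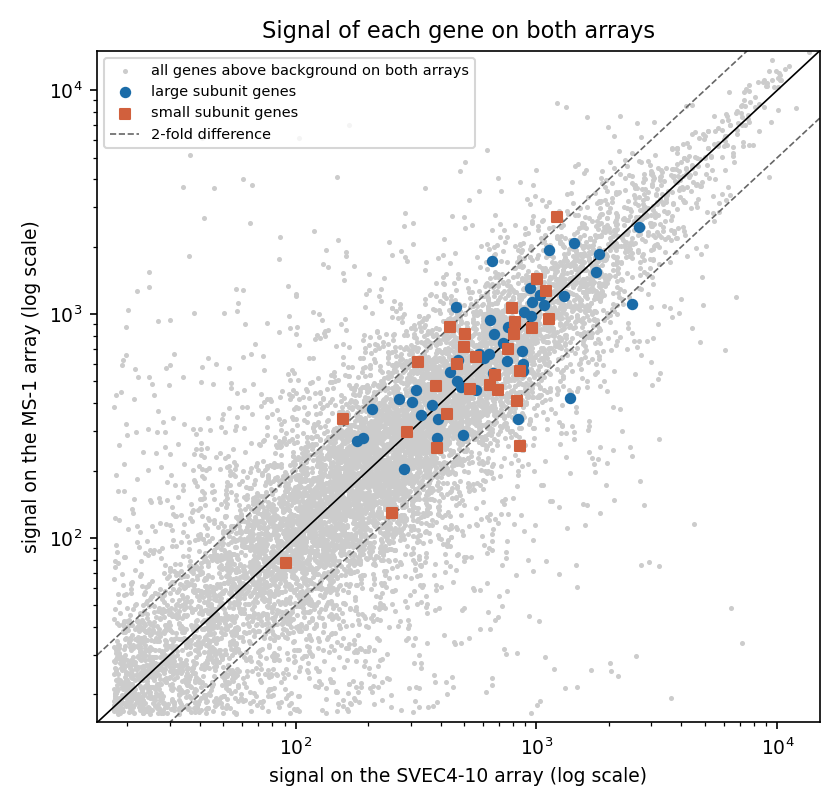
Signal in SVEC4-10 cells (x axis, log scale) against signal in MS-1 cells (y axis, log scale). Grey points are the 10124 genes above background on both arrays, blue circles large subunit genes and red squares small subunit genes of the mitochondrial ribosome, the solid line marks equal signal and the dashed lines 2-fold. The family lies in the upper middle of the signal range, from 91.5 to 2657 in SVEC4-10 cells and from 76.9 to 2704 in MS-1 cells.

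Among large subunit genes, 3 were at least 2-fold higher in SVEC4-10 cells. Mrpl32, a protein of bacterial descent that is cut by a mitochondrial protease before it joins the ribosome, had a signal of 1379.6 in SVEC4-10 cells and 422 in MS-1 cells. This is a 3.27-fold difference, a log2 ratio of 1.71, from the only probe set of the gene. Mrpl49, which has no bacterial counterpart, had a signal of 840.4 in SVEC4-10 cells and 339 in MS-1 cells. Its log2 ratio was 1.31, and the second probe set gave 1.19. Mrpl13, of bacterial descent, had a signal of 2497 in SVEC4-10 cells and 1111 in MS-1 cells, a log2 ratio of 1.17, and its 3 measured probe sets ranged from 1.14 to 1.39. For Mrpl49 and Mrpl13 all measured probe sets therefore placed the gene more than 2-fold higher in SVEC4-10 cells.

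The large subunit genes lowest in SVEC4-10 cells were Mrpl15 and Mrpl35, both of bacterial descent. Mrpl15 had a signal of 652 in SVEC4-10 cells and 1723 in MS-1 cells, a log2 ratio of -1.40. Of its 5 probe sets above background on both arrays, 4 gave ratios from -1.90 to -1.40, and a dim probe set of the cross-hybridising class (signals 34.6 in SVEC4-10 cells and 33.4 in MS-1 cells) gave 0.052. Mrpl35 had a signal of 463 in SVEC4-10 cells and 1080.2 in MS-1 cells, a log2 ratio of -1.22. Its other probe sets were above background in MS-1 cells alone, where they gave bounds of -0.98 and -0.72.

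Small subunit genes were led by Mrps36, with a signal of 855 in SVEC4-10 cells and 259 in MS-1 cells. The difference was 3.30-fold, a log2 ratio of 1.72, again from a single probe set. Mrps36 carries a ribosomal name but is now known as a part of the alpha-ketoglutarate dehydrogenase complex of the citric acid cycle. Without it, the family median was -0.07 and the standard deviation 0.59. At least 2-fold higher in SVEC4-10 cells were then 4 of 75 genes (5.33%), against 15.2% of all measured genes. Mrps12, a protein of the decoding centre, had a signal of 829.8 in SVEC4-10 cells and 407 in MS-1 cells. Its log2 ratio of 1.03 just passed 2-fold, and its probe set is of the class that matches several transcripts. Mrps9, of bacterial descent, fell short with a log2 ratio of 0.96, and its dimmer probe sets above background on both arrays reached as low as 0.43.

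On the low side of the small subunit stood Mrps14 and Mrps5. Mrps14 had a signal of 1213 in SVEC4-10 cells and 2704 in MS-1 cells, a log2 ratio of -1.16. Its second probe set, with signals of 145 in SVEC4-10 cells and 176 in MS-1 cells, gave only -0.28. Mrps5 had a signal of 157 in SVEC4-10 cells and 339 in MS-1 cells, a log2 ratio of -1.11, and its 4 probe sets above background on both arrays ranged from -1.11 to -0.24. Mrps10 followed with a log2 ratio of -0.93. The 2-fold call of both Mrps14 and Mrps5 thus rests on the brightest probe set.

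The 3 paralogs of the bacterial ribosomal protein S18 did not share a direction. Mrps18b had a signal of 436 in SVEC4-10 cells and 872 in MS-1 cells, a log2 ratio of -0.999 that stayed just under 2-fold. Mrps18c had a signal of 1091 in SVEC4-10 cells and 1269.9 in MS-1 cells, a log2 ratio of -0.22. Mrps18a, which sits in the large subunit in spite of its name, had a signal of 764 in SVEC4-10 cells and 698 in MS-1 cells, a log2 ratio of 0.13. Each has 1 probe set, and the Mrps18c and Mrps18a ratios lie within the error of 0.49.

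Most other members with known roles lay close to 0. Mrpl12, a stalk protein that also binds the mitochondrial RNA polymerase, had a signal of 889.8 in SVEC4-10 cells and 1025 in MS-1 cells (log2 ratio -0.20). Mrpl58, a peptidyl-tRNA hydrolase that frees stalled ribosomes, had a signal of 729 in SVEC4-10 cells and 741 in MS-1 cells (-0.02). Mrpl11, at the base of the stalk, had a log2 ratio of -0.55, and its 3 measured probe sets ranged from -0.62 to -0.53. The genes known from human mitochondrial disease included Mrpl3 (-0.10), Mrps16 (-0.43), Mrps22 (0.19), Mrps34 (0.25) and Mrpl44 (0.48). The probe sets of Mrpl44 disagreed in sign, from -0.34 to 0.48. Among mitochondria-specific proteins of the large subunit, Mrpl37 had a ratio of -0.64, Mrps30 of -0.36 and Mrpl41 of 0.55.

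Besides Mrps14 above, the 4 genes with the brightest probe sets showed small to moderate differences. Mrpl51 had a signal of 2657 in SVEC4-10 cells and 2456 in MS-1 cells (log2 ratio 0.11), Mrpl17 of 1812 and 1851 (-0.03), and Mrpl33 of 1436 and 2081 (-0.53), in the same order of cells. A dim second probe set of Mrpl51 (46.9 and 84.0 in that order) gave -0.84. The dimmest included Mrps27, a protein without bacterial counterpart, with a signal of 91.5 in SVEC4-10 cells and 76.9 in MS-1 cells (0.25), and Mrpl50, with 180.1 and 271 in that order (-0.59). The second probe set of Mrpl50 had signals of 161.8 and 152.9 in that order and gave 0.08, so its direction is not settled. Signals are not compared between genes here, because probe sets differ in binding strength. Measured probe sets lay over 1 log2 unit apart for Mrpl15, Mrpl3, Mrpl57 and Mrps21, in each case through a dim probe set. Mrpl57 had -0.23 by its brightest and 0.89 by its other probe set, and Mrps21 had 0.63 and a bound of -0.39. Of the 29 genes with several probe sets above background on both arrays, 19 had ratios of 1 sign and 10 of both signs.

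Both subunits had medians near 0. The 47 large subunit genes had a median log2 ratio of -0.09, with 3 at least 2-fold higher (6.38%) and 2 lower (4.26%) in SVEC4-10 cells. The 29 small subunit genes had a median of -0.01, with 2 higher and 2 lower (6.90% each). The 2 higher ones were Mrps12 and Mrps36, and Mrps36 was counted here by its name alone. Counting Mrps18a and Mrps30 in the large subunit, where they sit, left both medians at these values. The proteins were also grouped by whether a bacterial counterpart holds the same place, which is not the same as descent. Mrps18a and Mrps18b, paralogs of bacterial S18, were placed in the mitochondria-specific group, and Mrps36 in neither group. The 45 proteins with a bacterial counterpart in the same place had a median of -0.19, with 13 ratios above 0 and 32 below. The 30 mitochondria-specific proteins had a median of 0.14, with 17 above 0 and 13 below. Over all measured genes, 6325 ratios were above 0 and 6129 below. No mitochondria-specific gene was at least 2-fold lower in SVEC4-10 cells and 1 (3.33%), Mrpl49, was at least 2-fold higher. Mrps18b, at -0.999 as deposited, passed 2-fold lower at -1.02 when ratios were centred on the median of genes above background on both arrays. Among proteins with a bacterial counterpart, 3 were higher (6.67%) and 4 lower (8.89%). All of these shares lie below those of all measured genes, 15.2% higher and 12.0% lower. The difference between these medians was not tested and has no replicate check. With arrays set level on the poly-A transcripts the medians were -0.70 for proteins with a bacterial counterpart and -0.37 for mitochondria-specific ones.

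Promoter sequence from RefSeq (assembly GRCm38.p6, 250 bases before to 50 after each gene start) was matched for 67 of the 76 genes. The genes not matched were Mrpl13, Mrpl15, Mrpl19, Mrpl38, Mrpl4, Mrpl54, Mrps28, Mrps34 and Mrps35. NRF1, ETS factors such as GABP, and YY1 are known to act on nuclear genes for mitochondrial proteins. Their motifs were searched on both strands as GCGCA and GCGC with 1 base of any kind between them (NRF1), CCGGAAG (ETS) and AAGATGGCG (YY1). The ETS and YY1 motifs share the letters AAG, so a site can count for both. The NRF1 motif was in the windows of 12 of the 67 genes (17.9%), in 5.19% of 27025 genes with a window and in 11.2% of the 10061 of these that were measured. The ETS motif was in 25 (37.3%, against 9.93% of all and 19.4% of measured genes) and the YY1 motif in 8 (11.9%, against 1.64% and 3.41%). At least 1 motif was in 39 windows (58.2%, against 15.1% of all and 30.2% of measured genes).

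The median log2 ratio was -0.03 for the 39 genes with at least 1 motif, of which 2 were at least 2-fold higher and 1 lower in SVEC4-10 cells, and -0.07 for the 28 genes without. It was 0.16 with the NRF1 motif and -0.10 without, -0.10 with the ETS motif and -0.06 without, and 0.16 with the YY1 motif and -0.07 without. These differences were not tested. Among all measured genes, 15.2% were at least 2-fold higher and 12.0% lower in SVEC4-10 cells. The 150 bases just before the gene start are shown for the genes of the highest and lowest ratio that have a window, and for Mrpl17, whose signals were nearly equal. Motif letters are in capitals and the rest in lower case, 5′ to 3′ on the strand of the gene. Mrps36 (log2 ratio 1.72) is at chr13:100744660-100744809, minus strand, Mrpl32 (1.71) at chr13:14613038-14613187, minus strand, Mrpl17 (-0.03) at chr7:105811088-105811237, minus strand, Mrps14 (-1.16) at chr1:160195065-160195214, plus strand, and Mrpl35 (-1.22) at chr6:71823785-71823934, minus strand.
Mrps36: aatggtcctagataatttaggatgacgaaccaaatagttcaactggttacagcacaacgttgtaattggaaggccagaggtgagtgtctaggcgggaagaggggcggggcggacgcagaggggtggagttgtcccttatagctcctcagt
Mrpl32: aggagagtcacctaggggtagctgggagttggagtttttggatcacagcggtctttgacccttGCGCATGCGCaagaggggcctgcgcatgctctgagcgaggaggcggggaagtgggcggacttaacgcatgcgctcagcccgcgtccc
Mrpl17: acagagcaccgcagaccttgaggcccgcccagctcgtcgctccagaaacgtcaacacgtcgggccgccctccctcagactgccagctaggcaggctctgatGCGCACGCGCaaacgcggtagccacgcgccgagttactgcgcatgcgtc
Mrps14: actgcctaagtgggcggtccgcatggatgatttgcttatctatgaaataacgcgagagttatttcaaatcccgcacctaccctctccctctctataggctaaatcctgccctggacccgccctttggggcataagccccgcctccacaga
Mrpl35: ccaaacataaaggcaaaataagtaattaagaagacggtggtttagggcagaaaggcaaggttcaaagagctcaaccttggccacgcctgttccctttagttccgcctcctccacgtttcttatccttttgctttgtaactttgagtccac
The NRF1 motif stands in this stretch of Mrpl32 and of Mrpl17, a gene with a 3.27-fold difference and a gene with nearly none. The stretches of Mrps36, Mrps14 and Mrpl35 hold none of the 3 motifs. A YY1 motif of Mrpl35 and an ETS motif of Mrpl17 lie elsewhere in their windows. A match of letters is a description and not a bound site.

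Some of the genes start back to back with a neighbour on the other strand, and the share of such genes among all genes was not counted. Among the 67 genes with a promoter window, a neighbour whose start lay within 1000 bases was found for 25, in 24 pairs, all measured. Of these pairs, 1 joins 2 members, Mrps11 and Mrpl46. Their starts lie 42 bases apart, and the 41 bases between them are shown 5′ to 3′ on the strand of Mrps11 (chr7:78783090-78783130, plus strand), with none of the 3 motifs.
Mrps11 and Mrpl46: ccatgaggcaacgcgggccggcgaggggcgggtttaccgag
Mrps11 had a signal of 386 in SVEC4-10 cells and 251 in MS-1 cells (log2 ratio 0.62), and Mrpl46 had 392 and 341 in that order (0.20).

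The 4 members at least 2-fold apart that have such a neighbour were Mrpl32, Mrpl49, Mrps12 and Mrps5, and the first 3 were each beside a gene less than 2-fold apart. Psma2, a proteasome subunit whose start lies 205 bases from that of Mrpl32, had a signal of 3049 in SVEC4-10 cells and 1743 in MS-1 cells, a log2 ratio of 0.81 against 1.71 for Mrpl32. Fau, which encodes a ribosomal protein fused to a ubiquitin-like protein, lies 192 bases from Mrpl49 and had a ratio of -0.39 against 1.31. Sars2, the mitochondrial seryl-tRNA synthetase, lies 147 bases from Mrps12 and had a ratio of -0.05 against 1.03. Zfp661, beside Mrps5 (-1.11), was not above background in SVEC4-10 cells, so its ratio of -0.64 is a bound and may be lower. Twnk, the mitochondrial DNA helicase beside Mrpl43, had a ratio of -0.92 against -0.23. Over the 24 pairs, 13 had ratios of the same sign and 11 of opposite signs, and the correlation was 0.30 by Pearson and 0.25 by Spearman, with 4 of the neighbours at a bound, given as a description since all points come from the same pair of arrays.

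**Figure D3:**
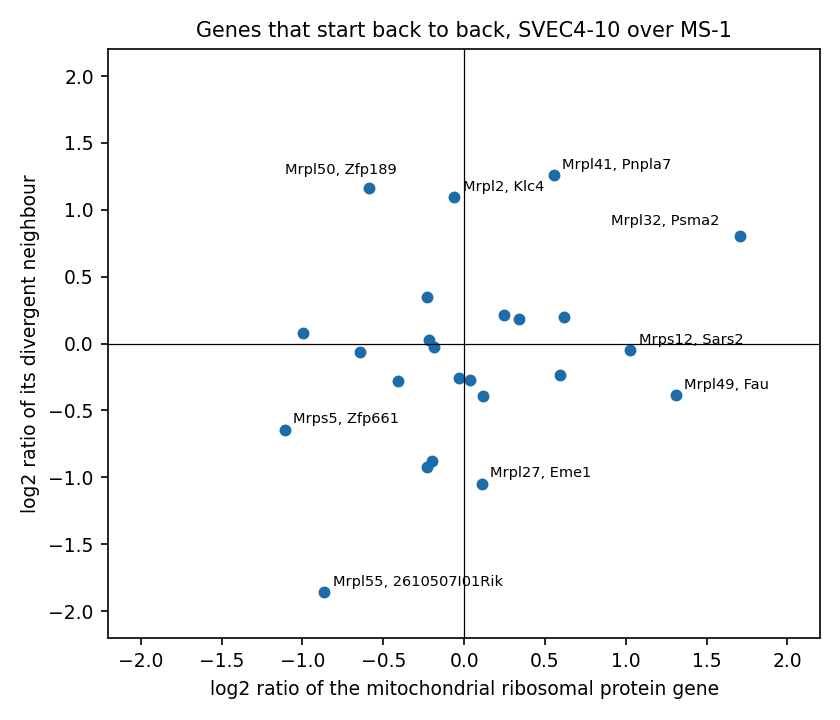
Log2 ratio (SVEC4-10 over MS-1) of each mitochondrial ribosomal protein gene with a back-to-back neighbour (x axis) against that of the neighbour (y axis), 24 pairs. Pairs with a member or neighbour at least 2-fold apart are named. Mrpl49 and Mrps12 lie to the right at neighbour ratios near or below 0, and Mrpl32 with Psma2 lies at the upper right.

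Set beside the cytosolic ribosomal protein genes and those of the respiratory chain and ATP synthase, the family had a median between theirs. Cytosolic ribosomal protein genes had a median log2 ratio of -0.21 (9 above 0 and 37 below, 1 at least 2-fold higher and 2 lower in SVEC4-10 cells). These 2-fold calls rest on dim probe sets. Signals in SVEC4-10 and MS-1 cells were 112.9 and 27.7 for Rpl39, 84.0 and 211 for Rps27, and 90.6 and 197 for Rps24. The median signals of the list were 7154 and 7758. The list was drawn by symbol and also holds Rps19bp1 (0.46), which is not a ribosomal protein. Genes of the respiratory chain and ATP synthase had a median of 0.14 (48 above 0 and 26 below, 5 higher and 0 lower). The highest, Cox7a1, was dim, with a signal of 43.1 in SVEC4-10 cells and a value below background in MS-1 cells. Its ratio of 1.41 is therefore a bound. Among all measured genes, 15.2% were at least 2-fold higher and 12.0% lower, and 6325 ratios were above 0 and 6129 below. The differences between the medians of these 2 lists and that of the family (-0.07) were not tested.

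**Figure D4:**
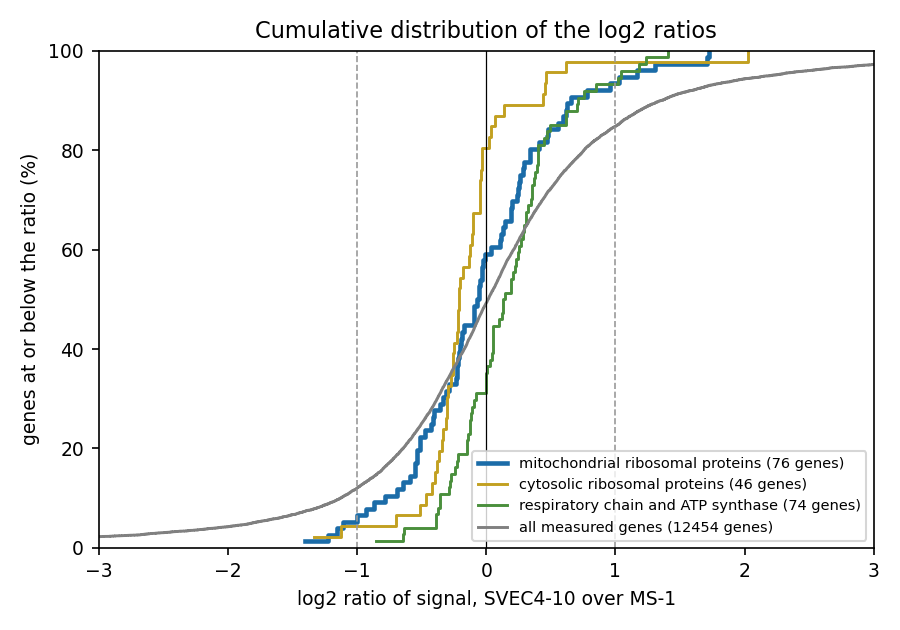
Percent of genes (y axis) at or below a given log2 ratio of SVEC4-10 over MS-1 (x axis, shown from -3 to 3) for the 76 mitochondrial ribosomal protein genes, 46 cytosolic ribosomal protein genes, 74 genes of the respiratory chain and ATP synthase and all 12454 measured genes. The family's curve covers a narrower range than that of all genes. Of the 46 cytosolic ribosomal protein genes 37 lie below 0, as do 6129 of all 12454 measured genes.

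Other genes of mitochondrial protein synthesis also differed from gene to gene. The standard deviations of the log2 ratio lay between 0.49 and 0.83 over the 6 lists described next, against 0.62 for the family. Beside the 2-fold counts in these lists stand shares of 15.2% higher and 12.0% lower in SVEC4-10 cells among all measured genes. Ratios were below 0 for 6129 of all 12454 measured genes. Of 4 measured mitoribosome proteins without an Mrp name, all had ratios below 0: Dap3, which binds GTP, -0.08, Ptcd3 -0.27, Chchd1 -0.28 and Gadd45gip1 -1.16. A second probe set of Gadd45gip1 gave 1.34. The list of translation factors was drawn broadly and also holds genes of other function, such as Trmt10c and Oxa1l. Of its 14 measured genes, 2 were at least 2-fold higher in SVEC4-10 cells and 0 lower (median -0.27). Mtrf1l, a release factor that ends translation, had a signal of 359.7 in SVEC4-10 cells and 97.0 in MS-1 cells, a log2 ratio of 1.89, and Mtres1 had 599 and 214 in that order (1.49), each from 1 probe set. The lowest were Pdf, a deformylase, at -0.98 and Trmt10c at -0.85. Tufm, the elongation factor that brings transfer RNAs, had a ratio of -0.25, with -1.11 at its second measured probe set.

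Ribosome assembly and RNA modification factors (27 measured) had a median of -0.03, with 0 at least 2-fold higher and 2 lower in SVEC4-10 cells. The lowest were the methyltransferase Trmt61b at -1.58 (signals 30.6 in SVEC4-10 cells and 91.7 in MS-1 cells) and the helicase Ddx28 at -1.07. The highest were Mterf3 at 0.99 and Mettl15 at 0.94, with 0.08 at the other measured probe set of Mettl15. Of 16 measured mitochondrial aminoacyl-tRNA synthetases, 13 had ratios below 0, against 6129 of all 12454 measured genes. Their median was -0.41, where that of all measured genes was 0.01. Only Tars2 (-1.07) and Iars2 (-1.04) reached 2-fold lower, and their other measured probe sets gave -0.57 and -0.90. Fars2 was 2-fold higher by its brightest probe set (1.25) but gave -0.85 at the other. Hars2 likewise had 0.74 by its brightest and -0.39 by its other measured probe set.

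The list for mitochondrial transcription and RNA stability (13 measured), which also holds DNA replication genes such as Twnk and Polg, had a median of 0.25. In this list 1 gene was at least 2-fold higher and 0 lower in SVEC4-10 cells. Tfam, which packages mitochondrial DNA and starts its transcription, had a signal of 788 in SVEC4-10 cells and 401 in MS-1 cells, a log2 ratio of 0.97, with 1.20 at its second probe set. The 2-fold gene was Mterf2 at 1.06, Polrmt, the RNA polymerase, had 0.50, and Lrpprc, which stabilises mitochondrial messenger RNA, had -0.69. The lowest were Twnk at -0.92 and Tfb2m, a transcription factor, at -0.90. Among regulators of nuclear genes for mitochondrial proteins, 0 of 13 were at least 2-fold higher and 2 lower (median -0.43, the bound of Perm1, which was not above background in SVEC4-10 cells). These were Myc, a growth regulator, with a signal of 176 in SVEC4-10 cells and 411 in MS-1 cells (-1.22), and the corepressor Nrip1 (-1.02). Nrf1 had a ratio of -0.32 and Yy1 of -0.02, and probe sets of both ranged over both signs. Gabpa, a subunit of GABP, had 0.91 with a second probe set at -0.45. Sp1 had 0.71, with its 3 measured probe sets reaching as low as -0.55, and Ppargc1b had -0.14. Ppargc1a, a coactivator of mitochondrial biogenesis, was not above background on either array.

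**Figure D5:**
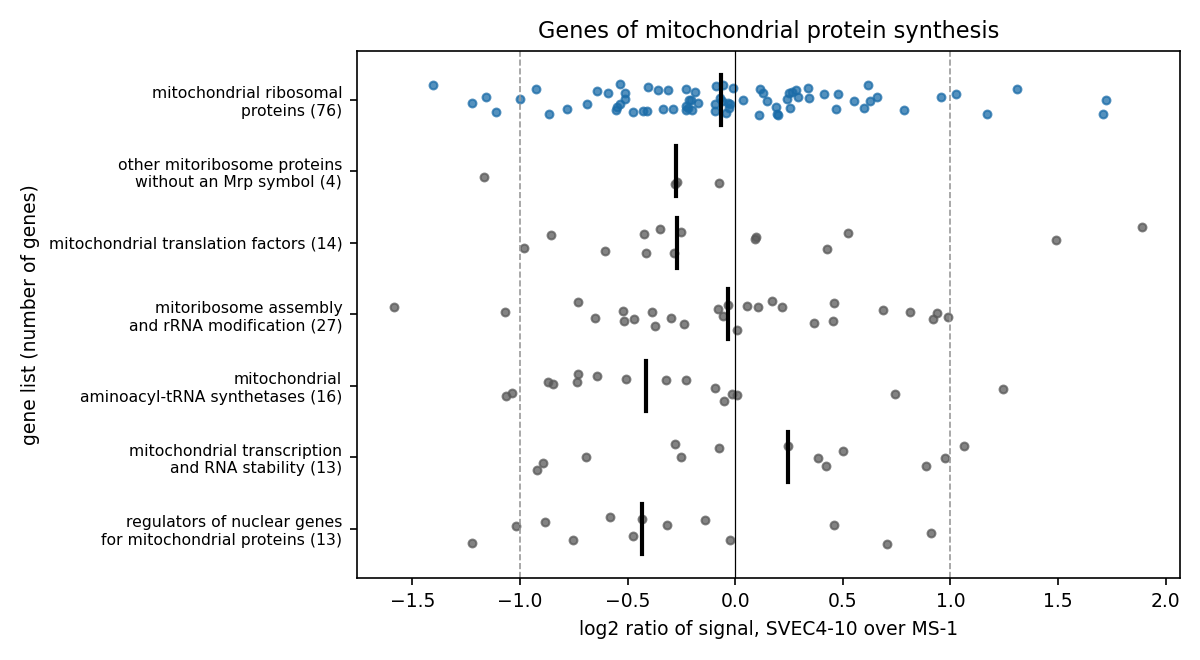
Log2 ratio of SVEC4-10 over MS-1 (x axis) of each measured gene in the mitochondrial ribosomal protein family (blue, top) and in 6 related lists (grey, y axis, number of genes in brackets). Each point is 1 gene, black bars are medians and dashed lines mark 2-fold. The medians lie between -0.43 for the regulators and 0.25 for transcription and RNA stability.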

How the data were processed

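The authors deposited probe set intensities on a linear scale, 1 value for each of 45101 probe sets and array, from biotin-labelled cRNA made from 6 µg of total RNA, per the labels' protocols. The summary software is not given in the sources used here. Both arrays had a 2%-trimmed mean of 150.001, and the values were used as deposited. Gene names came from the platform annotation, updated by gene identifier to RefSeq. The level taken as background on each array was the 95th percentile over 129 probe sets for chemosensory receptors and keratin-associated proteins. Values were raised to it before the log2 ratio of SVEC4-10 over MS-1 was taken, so a ratio with 1 array at background is a bound. Each gene was represented by its brightest probe set, with those marked as cross-hybridising used only where no other existed. The number of arrays limits the precision. The error was the standard deviation of the difference between a gene's brightest probe sets, divided by the square root of 2.

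Genes were named if at least 2-fold apart, among the 6 highest or lowest ratios, the 4 brightest or dimmest, of fixed role, or if probe sets lay over 1 log2 unit apart. In related lists the 2 highest, the 2 lowest and fixed genes were named. Members and lists were chosen with earlier results of these data known. Steps were tested on simulated data whose planted changes were larger than any ratio in the family, so the recovery of smaller changes was not tested. Python 3.11.15, pandas 2.3.3, numpy 2.4.6 and scipy 1.17.1 were used. The alternatives were other scalings, backgrounds, probe set choices and thresholds.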

Additional observations from a re-analysis of the deposited data

Results flagged for a closer look

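Probe sets annotated to a mitochondrial ribosomal protein gene together with another gene stand outside the family as defined, and 4 of them had signal above background on at least 1 array. The probe set shared by Mrpl30 and the locus Gm6238 had a signal of 2597 in SVEC4-10 cells and 1142 in MS-1 cells, a log2 ratio of 1.19. A cross-hybridising probe set of the same pair was dim, with 30.1 in SVEC4-10 cells and a value below background in MS-1 cells, which gives a ratio of at least 0.89. The probe set shared by Nme3 and Mrps34 had a signal of 269.7 in SVEC4-10 cells and 63.7 in MS-1 cells, a log2 ratio of 2.08, whereas the probe set of Mrps34 alone gave 0.25. The probe set shared by Ccdc142 and Mrpl53 had a ratio of -0.11. Which of the paired genes gave the signal cannot be told apart.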

How the results depend on the processing

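Scaling to the poly-A controls gave a median log2 ratio of -0.58 for the family, -0.60 for large and -0.52 for small subunit genes, with 2 genes at least 2-fold higher and 17 lower in SVEC4-10 cells (8.50% and 25.4% of all measured genes). Taking the mean over probe sets left 1 gene at least 2-fold lower (10.7% of all). Taking the probe set of smallest absolute ratio left 0 lower (8.59% of all), a standard deviation of 0.51 and a ratio of 0.052 for Mrpl15. Some values picked in this way are bounds, such as -0.72 for Mrpl35. Thresholds of 1.5-fold gave 11 genes higher and 11 lower (24.8% and 21.9% of all), and of 4-fold 0 and 0 (5.65% and 4.24%). The other 55 values for the family, under these settings and under quantile normalization, median centring, other or no background floors and leaving out less specific probe sets, moved by less than 0.1 (counts by less than 1.5 times). For 32 named genes, 243 of the recomputed ratios moved by less than the error of 0.49 and 42 by more, 32 of these under poly-A scaling, while Mrpl15 changed sign as given above. Each setting with another or no background floor gave 32 of the 243, and none of these could move. The probe sets used lay above every floor on both arrays, which also fixed the family values under those settings. Median centring shifted all ratios by the same 0.02. Sign changes came to 15, of which 14 were of genes less than 2-fold apart. Of the 15, 6 came under poly-A scaling and 5 (Mrpl15 included) with the probe set of smallest absolute ratio. The mean over probe sets gave 3 and quantile normalization 1. No replicate could be left out, and no paired analysis was possible because each line has 1 array.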

Other observations

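Of 17 measured genes of DNA replication and cell division, 0 were at least 2-fold higher and 1 lower (5.88%) in SVEC4-10 cells. Among all measured genes the shares were 15.2% and 12.0%. The median log2 ratio of the 17 genes was -0.08, close to that of the mitochondrial ribosomal protein genes. The lower gene was Rrm2, a ribonucleotide reductase subunit, with a signal of 626 in SVEC4-10 cells and 1595 in MS-1 cells (log2 ratio -1.35). Mki67, a marker of cycling cells, had a ratio of -0.65, and Cdk1 and Tyms had ratios of 0.65 and 0.86. The other measured probe set of Tyms gave -0.04.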
